A study of Mus musculus with 5 samples.

Results

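The genes of sialic acid metabolism were described in colon tumors of mice that did or did not express human SIGLEC12. The product of SIGLEC12 is Siglec-XII. Siglecs are lectins for sialic acids, but the paper states that human Siglec-XII has lost this binding through a mutation present in all humans. The mice were made to express this form without binding. The 32 members of the sialic acid gene set were fixed by symbol. They were 6 genes of synthesis, activation and modification of the sugar, 1 of its breakdown and 3 sialidases. The others were 20 sialyltransferases and 2 genes that add or remove O-acetyl groups. All 32 were found among the 52143 rows of the deposited table. A symbol with more than 1 row was taken from the row with the highest mean, and this applied to 2 members, St6galnac2 and St6gal2.

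RNA-Seq data came from 2 Control tumors, replicates 1 and 4, and 3 SIGLEC12 tumors, replicates 2, 3 and 4, written below as Control 1, SIGLEC12 2 and so on. All mice carried Villin1-Cre-ERT, a tamoxifen-inducible recombinase driven by an epithelial promoter of the small and large intestine. The SIGLEC12 mice carried in addition 1 floxed human SIGLEC12 cassette with a CAG promoter in the ROSA26 locus. In this design a stop codon ahead of SIGLEC12 blocks its expression until the recombinase has acted. Both groups were female, were 8 weeks old when tamoxifen (10 mg/ml) was given for 5 days, and then received the carcinogen azoxymethane (AOM, 10 mg/kg). Dextran sulfate sodium (DSS), an irritant of the colonic epithelium, followed at 2.0% in 4 cycles of 5 days, each with a recovery of 14 days, and tumors were taken on day 87. Another Control mouse named in the series text and the transgene itself were not analysed here, so the knock-in labels were not checked against its expression. The values are log2(TPM + 1), where TPM is a gene's abundance per transcript length relative to all RNA of its sample. TPM keeps no read counts, and sequencing depth is therefore not known for any value.

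Sialic acids are acidic sugars that cap the outer ends of glycans on secreted mucins, membrane glycoproteins and gangliosides. The cell makes N-acetylneuraminic acid from UDP-GlcNAc in the cytosol, activates it to CMP-sialic acid in the nucleus and carries it into the Golgi, where sialyltransferases join it to galactose, N-acetylgalactosamine (GalNAc) or another sialic acid in defined linkages. Sialidases remove it again. In the colon these caps cover much of the mucus layer and the epithelial surface, and Siglec receptors on leukocytes read them.

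Upstream promoter windows are shown for the tested synthesis, sialidase and sialyltransferase genes, those above the filter on low values given below, whose 2 groups of samples did not overlap and whose window held no annotated exon, so that the start regions of genes measured side by side can be compared. Each is the 250 bases before the RefSeq start nearest to the gene's GENCODE start, in GRCm38.p6, 5′ to 3′ on the gene's own strand, and capitals mark the GC box, GGGCGG or its reverse complement CCGCCC. They are Gne (chr4:44084178-44084427, minus strand), Cmas (chr6:142756436-142756685, plus), Slc35a1 (chr4:34687439-34687688, minus), Neu1 (chr17:34931003-34931252, plus), St3gal3 (chr4:118134947-118135196, minus) and St3gal6 (chr16:58524254-58524503, minus).
Gne: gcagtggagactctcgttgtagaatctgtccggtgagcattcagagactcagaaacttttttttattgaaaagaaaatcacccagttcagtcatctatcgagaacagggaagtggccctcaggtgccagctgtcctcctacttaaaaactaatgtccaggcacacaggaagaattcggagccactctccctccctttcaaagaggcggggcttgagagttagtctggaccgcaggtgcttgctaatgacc
Cmas: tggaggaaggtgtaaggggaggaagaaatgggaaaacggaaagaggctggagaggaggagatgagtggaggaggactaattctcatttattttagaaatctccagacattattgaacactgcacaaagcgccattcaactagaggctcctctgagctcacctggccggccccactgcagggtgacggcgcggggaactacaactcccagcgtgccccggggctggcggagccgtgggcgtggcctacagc
Slc35a1: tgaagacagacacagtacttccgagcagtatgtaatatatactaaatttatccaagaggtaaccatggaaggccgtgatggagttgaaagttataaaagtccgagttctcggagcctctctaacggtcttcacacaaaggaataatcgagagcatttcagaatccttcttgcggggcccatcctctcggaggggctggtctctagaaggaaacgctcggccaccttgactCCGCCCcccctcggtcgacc
Neu1: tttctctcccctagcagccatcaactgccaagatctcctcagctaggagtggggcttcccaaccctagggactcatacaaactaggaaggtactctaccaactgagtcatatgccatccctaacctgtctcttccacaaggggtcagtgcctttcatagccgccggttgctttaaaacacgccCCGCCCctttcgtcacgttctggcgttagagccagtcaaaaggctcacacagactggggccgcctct
St3gal3: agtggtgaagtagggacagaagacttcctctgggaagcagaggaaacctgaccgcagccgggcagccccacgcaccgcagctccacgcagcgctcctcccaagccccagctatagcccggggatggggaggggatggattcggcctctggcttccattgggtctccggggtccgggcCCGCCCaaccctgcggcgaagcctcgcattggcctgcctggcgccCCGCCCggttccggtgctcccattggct
St3gal6: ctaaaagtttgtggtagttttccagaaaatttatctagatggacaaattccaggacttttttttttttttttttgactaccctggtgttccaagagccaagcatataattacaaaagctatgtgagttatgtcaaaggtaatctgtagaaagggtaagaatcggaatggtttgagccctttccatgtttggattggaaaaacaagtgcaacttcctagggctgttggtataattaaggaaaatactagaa

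RefSeq held a window for 22 of the 32 members. Among members that passed the filter on low values described next, 6 of 11 windows (54.5%) held a GC box, against 7 of 11 (63.6%) among members under it and 32.7% of all 32851 RefSeq windows of this length. Of the windows shown, Slc35a1 and Neu1 held 1 GC box, St3gal3 held 2, and Gne, Cmas and St3gal6 held 0. The number of CG dinucleotides ranged from 1 in the St3gal6 window to 18 in that of St3gal3. RefSeq also held a second start, farther from the GENCODE start, for Gne and St3gal6, whose windows are not shown. The second window of Gne held 0 GC boxes and 22 CG dinucleotides, and that of St3gal6 held 4 and 16. A TATA box, TATAAA on either strand, was in the Slc35a1 window and in no other of the 11 (9.09%, against 12.4% of all windows). An E-box, CACGTG, was in 0 of the 11 windows and in 2 of the 11 under the filter (18.2%), against 6.02% of all.

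The samples differed in composition before any member was compared. Protein-coding genes took 5.7% and 6.73% of the TPM in Control 1 and 4, and 8.85%, 8.75% and 9.72% in SIGLEC12 2, 3 and 4. The 10 columnar epithelium markers, keratins and adhesion genes such as Krt8 and Epcam, summed to 314 and 913 TPM in the Control samples and to 1120, 1110 and 1740 TPM in the SIGLEC12 samples, without overlap. The 7 goblet cell markers summed to 340 and 838 TPM in Control and to between 773 and 949 TPM in SIGLEC12. The 6 squamous epithelium markers, among them Krt5 and Trp63, summed to 2610 TPM in Control 1 and to between 295 and 735 TPM in the other 4 samples, so squamous RNA was in every sample labelled as colon and was most abundant in Control 1. Fibroblast markers summed to 8.71 and 10.5 TPM in Control and were higher in each SIGLEC12 sample, at up to 57.9 TPM, while myeloid markers lay between 3.45 and 19.5 TPM, neutrophil markers between 20.2 and 52.9 TPM and smooth muscle markers reached at most 123 TPM. Endothelial markers summed to 1.07 and 1.12 TPM in Control and to 5.55, 2.18 and 3.22 TPM in SIGLEC12. B and plasma cell markers summed to 0.147 and 0.301 TPM in Control and to 1.5, 0.989 and 0.74 TPM in SIGLEC12, and T cell markers to 0.415 and 0.538 TPM against 1.19, 1.15 and 0.629 TPM. The fibroblast, endothelial, B and plasma cell and T cell sums thus all lay higher in SIGLEC12 without overlap, the last 3 at low levels. Nerve and glia markers did not exceed 2.98 TPM, and Cd79a, Cd79b, Mzb1, Cd8a and Sox10 were at or below 0.1 TPM in all. In such bulk samples, fewer cells of a type and less RNA per cell cannot be told apart.

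**Figure D1:**
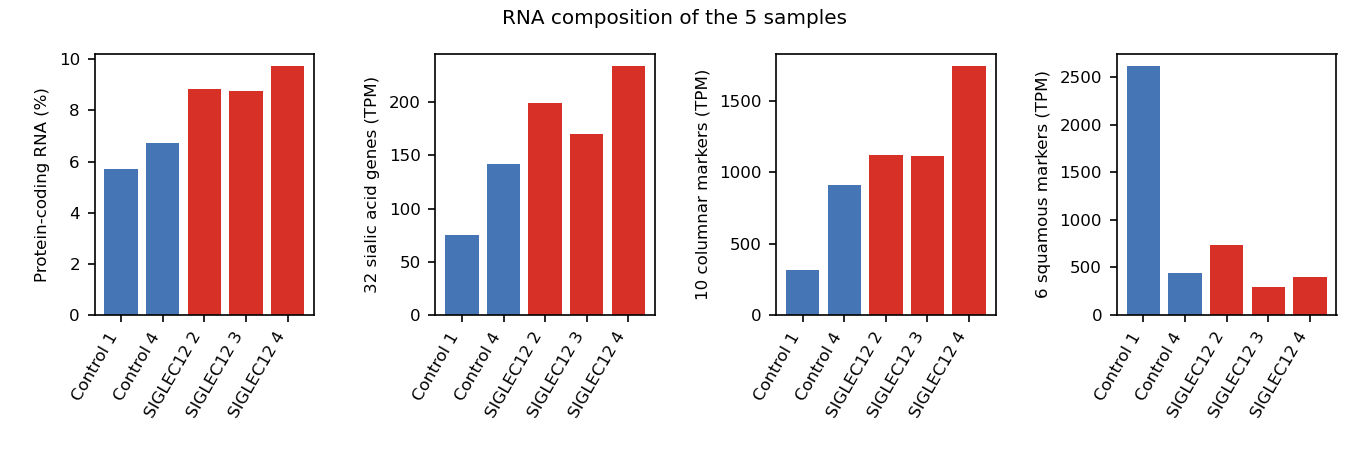
Composition of the 5 samples. Bars give, per sample, protein-coding RNA in percent of TPM, and the summed TPM of the 32 sialic acid genes, of 10 columnar epithelium markers and of 6 squamous epithelium markers (linear axes from 0, blue Control, red SIGLEC12). The sialic acid genes and the columnar markers are lowest in Control 1, where the squamous markers reach 2610 TPM.

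The sialic acid genes summed to 75.5 and 141.7 TPM in Control 1 and 4, and to 199.2, 169.9 and 233.5 TPM in SIGLEC12 2, 3 and 4. The groups did not overlap, and the 5 samples ranked in the same order by this sum as by the columnar markers. As a share of protein-coding TPM the sums were 0.133% and 0.21% in Control and 0.225%, 0.194% and 0.24% in SIGLEC12, where Control 4 stood above SIGLEC12 3. Per 100 TPM of the columnar markers the members took 24.0 and 15.5 TPM in Control and 17.8, 15.4 and 13.4 TPM in SIGLEC12, so on this scale Control 1 was the highest sample and the groups overlapped. The part of epithelial content in the differences between the groups was not tested.

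Of the 32 members, 14 passed the filter, a TPM of at least 1 in at least 2 samples, and were tested with limma among 10338 genes. With all 5 samples 0 members passed a Benjamini-Hochberg adjusted p under 0.05 with a change of at least 2-fold, as did 0.0% of all tested genes. In this fit 13 members were higher and 1 lower on average in SIGLEC12, as were 9016 and 1322 of the 10338 tested genes, and the median of their log2 fold changes was 0.75, against 0.38 over all tested genes. At an unadjusted limma p of at most 0.05 there were 7 higher (Gne, Nans, Cmas, Neu1, St3gal3, St3gal6 and St6galnac6) and 0 lower, beside 33.4% of all tested genes higher and 0.909% lower. Adding a 2-fold change left 4, Nans, Cmas, St3gal6 and St6galnac6, beside 3.97% of all tested genes higher and 0.445% lower. The groups did not overlap, with SIGLEC12 higher, in 9 of the 14, against 54.1% of all tested genes, and in none with SIGLEC12 lower, against 1.67%. Of these 9, Siae had reached 1 TPM in SIGLEC12 samples only, so it passed the filter through the group where it was high, which leaves 8. Siae was also counted among the 13 members higher on average and in the median of 0.75. Control 1 was the lowest sample in 13 of the 14.

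When the protein-coding total of every sample was set to the mean of the 5, the median over all tested genes moved to 0.01 and that of the 14 members to 0.26. At an unadjusted p of 0.05 or less, none was then higher and 1 was lower, St6galnac2, beside 4.45% of all tested genes higher and 6.31% lower. With a 2-fold change 0 members were left in either direction, beside 0.368% of tested genes higher and 1.37% lower. St3gal6 alone kept all 3 SIGLEC12 samples above both Controls (15.6% of all tested genes) and St6galnac2 alone had all 3 below (16.8%). Control 1 was still the lowest sample in 11 of the 14. The count of members past a threshold also depended on which Control sample was kept. Without Control 1, the deposited values gave 0 members past the unadjusted 2-fold threshold (1.38% of all tested genes were higher) and a median of 0.34 beside 0.26 over all genes. Without Control 4 they gave 8 members past it (13.2%), and 7 passed the adjusted threshold, Gne, Nans, Cmas, Neu1, St3gal3, St3gal6 and St6galnac6, as did 9.31% of all tested genes, with a lone Control sample assumed to vary like the SIGLEC12 group.

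**Figure D2:**
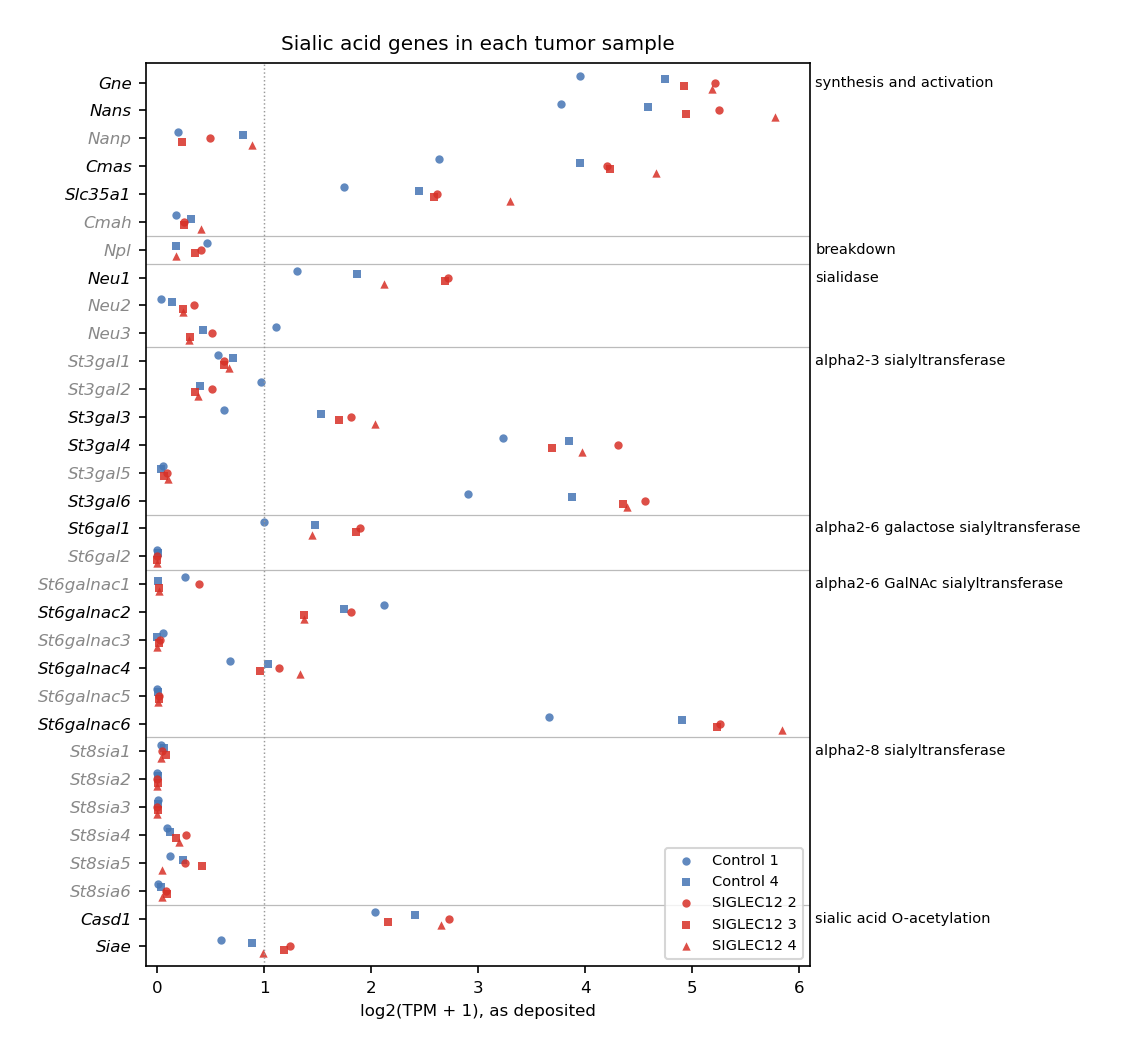
All 32 members in the 5 samples, ordered by role. The horizontal axis is the deposited log2(TPM + 1), each point is 1 sample (blue Control, red SIGLEC12), names in black passed the filter and the dotted line marks 1 TPM. The Control 1 point is the leftmost in 13 of the 14 tested members, and 18 members lie near the axis.

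The synthesis genes were the most abundant group beside the sialyltransferases, at 34.9 and 68.9 TPM in Control and 96.2, 82.3 and 123 TPM in SIGLEC12. They took between 46.2% and 52.8% of all members' TPM in each sample. Of the 6 genes, 4 passed the filter, all with SIGLEC12 samples above both Controls as deposited and with overlapping groups after rescaling. Gene coordinates are on GRCm38, from GENCODE M21.

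Gne (chromosome 4, 44034075 to 44084177, minus strand), the bifunctional epimerase and kinase that starts the pathway, stood at 14.4 and 25.9 TPM in Control 1 and 4 and at 36.1, 29.4 and 35.3 TPM in SIGLEC12 2, 3 and 4. The fitted log2 change was 0.76 (SE 0.30, adjusted p = 0.132 by limma), and 0.23 (SE 0.24) after rescaling. Nans (chromosome 4, 46489248 to 46503632, plus strand), the synthase that builds the sialic acid backbone, stood at 12.7 and 23.1 TPM in Control and at 37.0, 29.7 and 53.7 TPM in SIGLEC12. SIGLEC12 4 was the highest sample, and the log2 change was 1.14 (SE 0.36, adjusted p = 0.103 by limma), or 0.61 (SE 0.30) rescaled. Part of Nans, 1356 exon bases, overlaps Trim14 on the other strand, and the use of strand in the counting is not stated.

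Cmas (chromosome 6, 142756686 to 142775714, plus strand), which joins sialic acid to CMP, stood at 5.2 and 14.5 TPM in Control and at 17.3, 17.8 and 24.2 TPM in SIGLEC12. The gap between the 2 Controls was wider than that between Control 4 and SIGLEC12 2 or 3. The log2 change of 1.07 (SE 0.41, adjusted p = 0.126 by limma) became 0.41 (SE 0.29) without Control 1. Slc35a1 (chromosome 4, 34663257 to 34687438, minus strand), the Golgi transporter of CMP-sialic acid, stood at 2.37 and 4.47 TPM in Control and at 5.16, 5.04 and 8.86 TPM in SIGLEC12. On the log2 scale this was a change of 0.74 (SE 0.31, adjusted p = 0.149 by limma).

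The remaining 2 synthesis genes were under the filter. Nanp, the phosphatase between Nans and Cmas, ranged from 0.151 to 0.848 TPM, and Cmah, the hydroxylase that makes N-glycolylneuraminic acid and is inactive in humans, from 0.133 to 0.332 TPM. In both, the groups overlapped. Npl, the lyase that breaks sialic acid down, ranged from 0.131 to 0.383 TPM with its highest value in Control 1.

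Among the sialidases only Neu1 passed the filter. Neu1 (chromosome 17, 34931253 to 34935953, plus strand), the lysosomal enzyme, stood at 1.48 and 2.66 TPM in Control and at 5.57, 5.46 and 3.35 TPM in SIGLEC12. SIGLEC12 4, the highest sample for Nans and Cmas, was here the lowest of its group. The log2 fold change was 0.92 (SE 0.27, adjusted p = 0.0988 by limma), the smallest adjusted p of the 14 members, with a 95% interval from 0.27 to 1.56, and 0.52 after rescaling (interval from -0.14 to 1.18). Neu3, the plasma membrane sialidase that acts on gangliosides, was highest in a Control sample, at 1.15 TPM in Control 1 and between 0.227 and 0.424 TPM in the other 4 samples. Neu2, a cytosolic sialidase, stayed between 0.0291 and 0.271 TPM.

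The 20 sialyltransferases summed to 33.9 and 64.4 TPM in Control and to 89.5, 76.7 and 100.0 TPM in SIGLEC12, between 42.8% and 45.4% of all members' TPM in each sample. Of these, 7 passed the filter: 3 that form alpha2-3 links, St6gal1, and 3 that form alpha2-6 links to GalNAc. The genes St6galnac6, St3gal6 and St3gal4 made up most of the sum in every sample.

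The alpha2-3 enzymes put sialic acid on galactose. St3gal6 (chromosome 16, 58468125 to 58524243, minus strand), which acts on N-acetyllactosamine chains, stood at 6.5 and 13.7 TPM in Control and at 22.6, 19.4 and 19.9 TPM in SIGLEC12. The SIGLEC12 samples lay close together, above both Controls. In limma the log2 change was 1.04 (SE 0.32, adjusted p = 0.101 by limma), 0.53 rescaled (SE 0.27) and 0.56 without Control 1 (SE 0.24). St3gal6 shares 1603 exon bases with Dcbld2 on the other strand. St3gal4 (chromosome 9, 35046576 to 35119268, minus strand), with a similar acceptor, stood at 8.36 and 13.4 TPM in Control and at 18.9, 11.9 and 14.7 TPM in SIGLEC12. Its groups overlapped, and the log2 change of 0.45 (SE 0.29, adjusted p = 0.278 by limma, 95% interval from -0.24 to 1.15) became -0.06 after rescaling.

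St3gal3 (chromosome 4, 117932154 to 118134914, minus strand), another enzyme of lactosamine chains, stood at 0.553 and 1.89 TPM in Control and at 2.51, 2.25 and 3.12 TPM in SIGLEC12. The fitted log2 change was 0.77 (SE 0.28, adjusted p = 0.121 by limma), and 0.46 rescaled (SE 0.26). The O-glycan enzymes St3gal1 and St3gal2 were under the filter, at 0.489 to 0.638 TPM and 0.287 to 0.952 TPM, the latter highest in Control 1. St3gal5, which makes the ganglioside GM3, did not exceed 0.0704 TPM.

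St6gal1 (chromosome 16, 23224740 to 23360350, plus strand), which caps N-glycans with alpha2-6 sialic acid, stood at 0.994 and 1.78 TPM in Control and at 2.73, 2.63 and 1.74 TPM in SIGLEC12. SIGLEC12 4 lay just below Control 4, and the log2 change was 0.50 (SE 0.22, adjusted p = 0.163 by limma). Its paralog St6gal2 did not exceed 0.0097 TPM.

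The alpha2-6 GalNAc enzymes included the most abundant member and the only tested one that was lower in SIGLEC12. St6galnac6 (chromosome 2, 32599709 to 32620806, plus strand), which forms disialylated structures on gangliosides and glycoproteins, stood at 11.7 and 28.8 TPM in Control and at 37.2, 36.4 and 56.2 TPM in SIGLEC12. Its mean level of 34.1 TPM lay above 96.5% of tested protein-coding genes, and its log2 change was 1.16 (SE 0.41, adjusted p = 0.117 by limma), 0.63 rescaled (SE 0.35) and 0.54 without Control 1 (SE 0.34). The neighbouring St6galnac4 (32587095 to 32599698) ends 10 bases before it on the same strand, and stood far lower, at 0.603 and 1.05 TPM in Control and at 1.20, 0.944 and 1.53 TPM in SIGLEC12. Its groups overlapped, with a fitted log2 change of 0.29 (SE 0.20, adjusted p = 0.318 by limma).

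St6galnac2 (chromosome 11, 116675303 to 116694868, minus strand), which sialylates the innermost GalNAc of O-glycans, stood at 3.33 and 2.36 TPM in Control and at 2.50, 1.59 and 1.58 TPM in SIGLEC12. SIGLEC12 2 lay between the Controls, and the log2 change was -0.41 (SE 0.21, adjusted p = 0.202 by limma). After rescaling the log2(TPM + 1) values were 2.50 and 1.92 in Control and 1.70, 1.29 and 1.20 in SIGLEC12, which no longer overlapped, with a fitted log2 change of -0.81 (SE 0.24, limma unadjusted p = 0.0153, adjusted p = 0.457). Without Control 1 the deposited difference was -0.23 (SE 0.24). St6galnac2 shares 497 exon bases with 1810032O08Rik on the other strand and 383 with a second identifier of the same symbol on its own strand. St6galnac1, which makes the sialyl-Tn antigen, reached 0.314 TPM in SIGLEC12 2 and 0.198 TPM in Control 1 and stayed at or below 0.0159 TPM in the other 3 samples. St6galnac3 and St6galnac5 did not exceed 0.0454 and 0.0174 TPM.

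The 6 alpha2-8 enzymes, which add sialic acid to sialic acid, were all under the filter. St8sia4, a polysialic acid synthase, ranged from 0.0642 to 0.208 TPM, and St8sia5, which extends gangliosides, from 0.0327 to 0.339 TPM. St8sia1, St8sia2, St8sia3 and St8sia6 stayed under 0.1 TPM in all samples, as did 8 of the 18 members under the filter. The highest value among those 18 was the 1.15 TPM of Neu3.

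**Figure D3:**
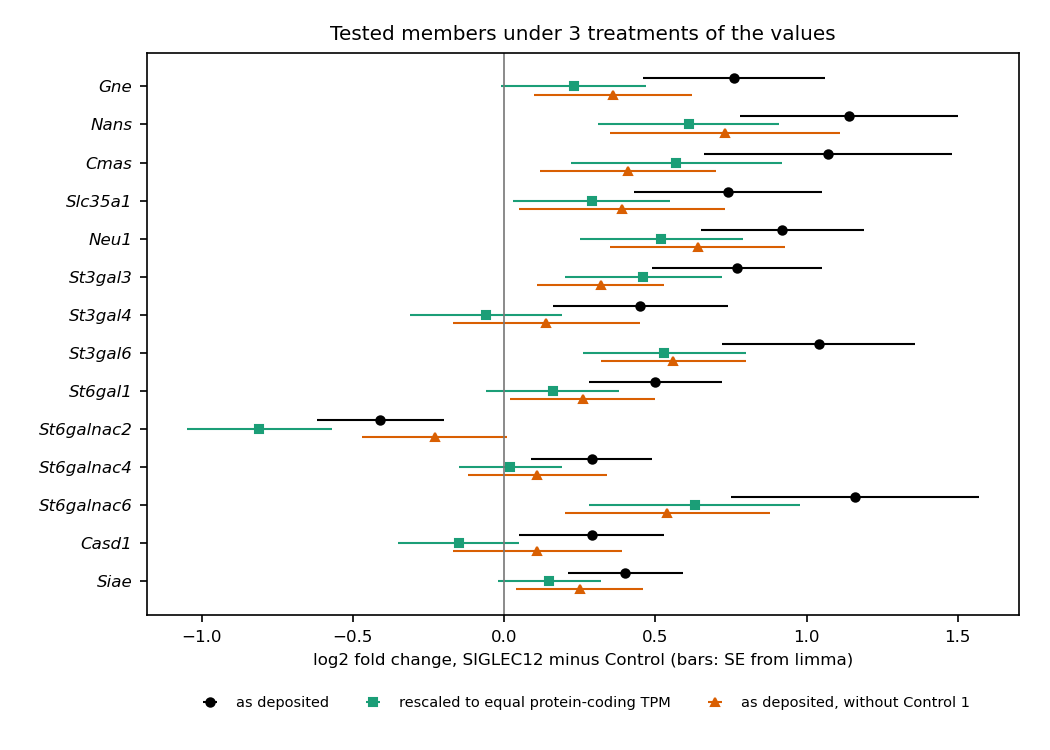
Log2 fold changes of the 14 tested members, SIGLEC12 minus Control, with bars of 1 SE from limma. Black circles use the deposited values, green squares the values rescaled to equal protein-coding TPM and orange triangles the deposited values without Control 1. All but St6galnac2 lie right of 0 as deposited, and St3gal4 and Casd1 cross to -0.06 and -0.15 after rescaling.

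Shares within the sialyltransferases do not depend on how a sample is scaled, so they were compared next. The alpha2-3 class took 49.8% and 46.5% of sialyltransferase TPM in Control and 50.3%, 44.9% and 38.7% in SIGLEC12, a difference of -3.55 percentage points (exact permutation p = 0.5, two-sided). The alpha2-6 GalNAc class took 46.7% and 50.1% in Control and 46.1%, 50.9% and 59.3% in SIGLEC12, a difference of 3.70 points (exact permutation p = 0.6). The alpha2-6 galactose class took between 1.74% and 3.43% (exact permutation p = 1.0), and the alpha2-8 class between 0.254% and 0.784% (exact permutation p = 0.9). The groups overlapped in all 4 classes, each Benjamini-Hochberg p over the 4 was 1.0, and the smallest p that 2 against 3 samples can give is 0.1. With this many samples a difference between the linkage classes was not detectable. The SD between SIGLEC12 tumors was 5.8 points for the alpha2-3 class and 6.7 points for the alpha2-6 GalNAc class.

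Within the classes, St6galnac6 took 34.4% and 44.8% of sialyltransferase TPM in Control and 41.6%, 47.5% and 56.2% in SIGLEC12 (exact permutation p = 0.4). St3gal6 took 19.2% and 21.2% in Control and 25.2%, 25.3% and 19.9% in SIGLEC12 (exact permutation p = 0.3). St3gal4 took 24.6% and 20.8% in Control and 21.1%, 15.6% and 14.7% in SIGLEC12 (exact permutation p = 0.3). The order of these genes was therefore not the same in all samples: St3gal4 exceeded St3gal6 in Control 1 alone. St6galnac2 took 9.82% and 3.66% in Control and 2.80%, 2.07% and 1.58% in SIGLEC12, without overlap (exact permutation p = 0.1, the smallest possible, and 0.4 after adjustment over the 20 genes). The shares of St3gal1, St3gal2, St6gal2 and St8sia3, all under the filter, were also lower in SIGLEC12 without overlap, with the same p-values. So were those of St6galnac4, which passed the filter, and St8sia2, which did not (exact permutation p = 0.2 for each). St6galnac4 took 1.78% and 1.64% in Control and 1.35%, 1.23% and 1.53% in SIGLEC12. Shares of the same total are not independent, since a higher share of some genes leaves less for the others. The mean shares of St6galnac6 and St3gal6 were 8.84 and 3.26 points higher in SIGLEC12. In deposited TPM the groups overlapped for each of the genes with lower shares named here, St6galnac2 included. St3gal1 averaged 0.564 TPM in Control and 0.565 TPM in SIGLEC12. The largest share of St6galnac2 was in Control 1, the sample with most squamous RNA. The part of the squamous markers in the St6galnac2 difference was not tested.

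**Figure D4:**
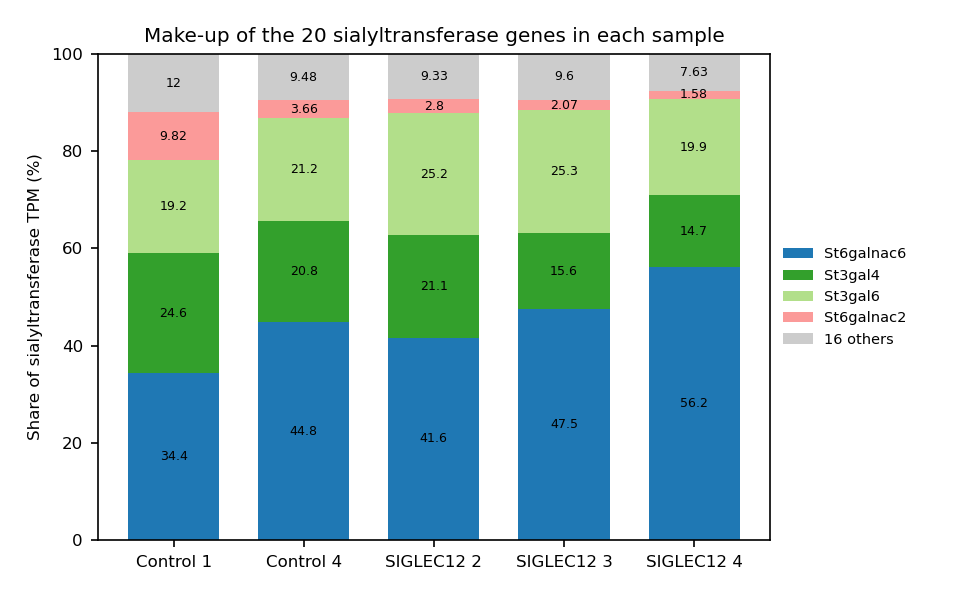
Make-up of the sialyltransferase genes in each sample. Stacked bars give shares of the summed TPM of the 20 genes (percent, axis from 0 to 100). St6galnac6, St3gal4, St3gal6 and St6galnac2 have their own segments, and the other genes are pooled. St6galnac6 is the largest segment throughout, from 34.4% in Control 1 to 56.2% in SIGLEC12 4, and that of St6galnac2 lies between 1.58% in SIGLEC12 4 and 9.82% in Control 1.

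The 2 genes of O-acetylation both passed the filter. Casd1 (chromosome 6, 4600839 to 4643355, plus strand), which adds O-acetyl groups to sialic acid, stood at 3.11 and 4.31 TPM in Control and at 5.63, 3.48 and 5.30 TPM in SIGLEC12. Its groups overlapped, and the log2 change of 0.29 (SE 0.24, adjusted p = 0.379 by limma) became -0.15 (SE 0.20) after rescaling. Siae (chromosome 9, 37555698 to 37649655, plus strand), the esterase that removes these groups, stood at 0.511 and 0.856 TPM in Control and at 1.37, 1.28 and 0.982 TPM in SIGLEC12, a log2 difference of 0.40 (SE 0.19). Siae shares 741 exon bases with Tbrg1 and 391 with Spa17 on the other strand.

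Genes that supply, carry or free sialylated glycans were counted from fixed lists, none of whose tested genes passed the adjusted threshold. Of 11 genes of UDP-GlcNAc supply and recycling, 9 were tested, 7 were higher and 0 lower at an unadjusted limma p of at most 0.05, and the median log2 fold change was 0.59, or 0.22 rescaled. Gnpnat1, which acetylates glucosamine phosphate for UDP-GlcNAc, stood at 1.67 and 2.36 on the log2 scale in Control and at 2.97, 3.18 and 3.15 in SIGLEC12 (log2 fold change 1.08, SE 0.25, adjusted p = 0.0974 by limma). Gnpda2, which returns glucosamine phosphate to glycolysis, stood at 1.05 and 1.30 in Control and at 1.89, 1.98 and 1.79 in SIGLEC12 (log2 fold change 0.71, SE 0.16). Of 17 genes that start and build mucin-type O-glycans, 15 were tested, 10 were higher and 0 lower, and the median was 0.82, or 0.37 rescaled. Galnt5, 1 of the 10, reached 1 TPM in SIGLEC12 samples only and so passed the filter through the group where it was high. It stood at 0.62 and 0.97 on the log2 scale in Control and at 1.33, 1.09 and 1.53 in SIGLEC12. C1galt1c1, the chaperone of the core 1 galactosyltransferase, stood at 1.56 and 1.94 in Control and at 2.67, 2.90 and 2.87 in SIGLEC12 (log2 fold change 1.07, SE 0.19, adjusted p = 0.0974 by limma), and its change was 0.64 rescaled and 0.88 without Control 1. Galnt1, which starts O-glycans, stood at 1.95 and 2.32 in Control and at 2.93, 2.94 and 3.54 in SIGLEC12 (log2 fold change 1.01, SE 0.26).

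Of 14 genes of N-glycan branching and galactosylation, 12 were tested, 7 were higher and 0 lower at the same unadjusted p, and the median was 0.63, or 0.17 rescaled. Mgat2 and Mgat1, which open the branches on which these caps sit, had log2 fold changes of 0.65 (SE 0.20) and 0.55 (SE 0.17). Mgat2 stood at 1.98 and 1.87 in Control and at 2.31, 2.71 and 2.72 in SIGLEC12, and Mgat1 at 1.83 and 2.03 against 2.46, 2.39 and 2.58. Of 8 genes of ganglioside cores and breakdown, 7 were tested, 5 were higher and 0 lower, with a median of 0.64, or 0.32 rescaled. Gm2a, 1 of the 5, reached 1 TPM in SIGLEC12 samples only and so passed the filter through the group where it was high. Its log2 values were 0.85 and 0.96 in Control and 1.79, 1.65 and 1.18 in SIGLEC12. Hexa, a lysosomal hexosaminidase subunit, stood at 1.76 and 2.18 in Control and at 2.81, 3.06 and 2.66 in SIGLEC12 (log2 fold change 0.88, SE 0.22), and B4galt5, a lactosylceramide synthase, at 1.29 and 1.70 against 2.46, 2.09 and 2.06 (log2 fold change 0.71, SE 0.21).

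Of 4 genes that handle sialic acid in the lysosome, 3 were tested and all 3 were higher at that p, with a median of 0.69, or 0.33 rescaled. Glb1, the lysosomal galactosidase that shares a complex with Neu1, stood at 1.31 and 1.89 in Control and at 2.44, 2.37 and 2.25 in SIGLEC12 (log2 fold change 0.75, SE 0.21). Slc17a5, which exports free sialic acid from the lysosome, stood at 0.75 and 1.18 in Control and at 1.57, 1.69 and 1.53 in SIGLEC12 (log2 fold change 0.63, SE 0.19). Of 10 mouse Siglec receptors 9 were found by symbol and 0 passed the filter, with no value above 0.486 TPM. These lists stand beside the 33.4% of all tested genes that were higher at the same p. After rescaling, 3 genes of UDP-GlcNAc supply and 2 of mucin-type O-glycans were higher at that p, 0 of the other 3 lists with tested genes were, and 0 genes of any list were lower, beside 4.45% higher and 6.31% lower over all tested genes.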

How the data were processed

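RNA-Seq was analysed from AOM/DSS colon tumors of 2 Control and 3 SIGLEC12 mice, grouped by the treatment labels. The authors deposited one table of log2(TPM + 1) values for 52143 genes, 1 column per sample, with TPM summing to between 999999 and 1000001. The submitters' processing notes name kallisto 0.45.0 and GRCm38, whereas the study's methods name another kallisto release and a human reference. The labels name a stranded total RNA kit and the methods an mRNA kit with technical replicate libraries. Whether a column averages such libraries and whether counting used strand are not given in the sources used here. Of the identifiers 98.45% were in GENCODE M21, which gave biotypes and coordinates. TPM was taken over all RNA classes, so a gene's value moves with every other RNA, and it keeps no depth: counting errors could not be computed. The number of value columns without a sample was 0.

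Genes with a TPM of at least 1 in at least 2 samples (10338) entered a limma fit (3.58.1, R 4.3.3, lmFit and eBayes with trend) on log2(TPM + 1), without covariates. The pseudocount of 1 understates changes of low genes. Thresholds were a Benjamini-Hochberg adjusted p under 0.05 with 2-fold, and an unadjusted p of at most 0.05 with 2-fold. The study's methods name DESeq2 on counts, which the TPM did not allow. Shares were compared by exact permutation over the 10 splits. P-values measure the spread between these samples. The fit was also run on simulated data with independent values and no shift shared by most genes. These samples differ from that setting, so the run cannot vouch for the p-values given here. The members and gene lists were chosen with earlier results of these data known. All members are accounted for, tested members with every value, and the 2 tested genes with the smallest p are named from each related list. Promoter windows and motifs came from RefSeq (GRCm38.p6). Protein sequences were not used here. Alternatives were other scalings, filters, a pseudocount of 0.1, sample weights and leaving out each sample. Scaling combined with leaving out a sample, and values per 100 TPM of columnar markers, were added after seeing the data.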

Additional observations from a re-analysis of the deposited data

How the results depend on the processing

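No paired analysis was possible because no label used here pairs a Control mouse with a SIGLEC12 mouse. The replicate numbers are not given as pairs. With 2 Control samples the spread within that group rests on 1 difference, and depth is unknown. A pseudocount of 0.1, a filter of 5 TPM and sample weights left the members' median at 0.84, 0.92 and 0.69 and the adjusted count at 0. The medians over all tested genes were 0.54, 0.6 and 0.38 in these settings, and the filter of 5 TPM kept 9 members. Without a filter the median over all 32 members was 0.06, and 0.04 above that of all genes, as the 18 low members entered.

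With the protein-coding rescaling, median-ratio size factors and quantile normalization, members past the unadjusted threshold numbered 0 instead of 4, their median was 0.26, 0.25 and 0.26, and it exceeded that of all genes by 0.25, 0.25 and 0.23. Under the same scalings St3gal4 reversed to -0.06, -0.07 and -0.11 and Casd1 to -0.15, -0.16 and -0.12. Genes of the related lists higher at the unadjusted threshold numbered 5 as deposited, 14 with the pseudocount of 0.1, 3 without a filter, 2 with sample weights and 0 under each scaling. Over all tested genes, 410 of 10338 were higher at it as deposited and 1087 with the pseudocount of 0.1. The all-gene counts were 359 of 34310 without a filter, 371 of 10338 with sample weights, and 38, 46 and 45 under the 3 scalings.

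Leaving out 1 sample, with and without rescaling, gave 0 to 7 members higher at the adjusted threshold, 0 to 8 higher and 0 to 1 lower at the unadjusted one, a median from 0.01 to 1.12, an excess over all genes from 0.06 to 0.61, and 0 to 17 related genes higher. Both ends of the median came from the Control samples: 0.01 without Control 1 after rescaling and 1.12 without Control 4 as deposited. The highest of these counts came without Control 4, with a lone Control sample left. The same counts over all tested genes were highest there too. As deposited without SIGLEC12 2, 3 or 4, members higher at the unadjusted threshold numbered 2, 3 and 2. Beside them stood 494, 388 and 441 of all 10338 tested genes. After rescaling these numbered 0 members each, beside 39, 31 and 72 tested genes. Changes ranged from -0.27 to 0.48 for Casd1, -0.26 to 0.77 for St3gal4, -0.12 to 0.47 for St6galnac4, -0.06 to 1.16 for Gne and -0.03 to 0.74 for St6gal1. St6galnac2 stayed between -1.10 and -0.23, and the other 8 tested members stayed at or above 0.00. The alpha2-6 galactose share difference ranged from -0.462 to 0.383 points and the alpha2-8 one from -0.158 to 0.107, both reversing without SIGLEC12 replicate 4. The cause of these moves was not tested.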

Other observations

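Per 100 TPM of the summed columnar epithelium markers, a scale chosen after seeing the data, St6galnac6 and Cmas varied least of the 6 most abundant members. St6galnac6 took 3.71 and 3.16 TPM in Control 1 and 4 and 3.32, 3.29 and 3.24 TPM in SIGLEC12 2, 3 and 4. Cmas took 1.65 and 1.58 TPM in Control and 1.55, 1.61 and 1.40 TPM in SIGLEC12. Nans took 4.03 and 2.53 TPM in Control and 3.30, 2.69 and 3.09 TPM in SIGLEC12, and Gne took 4.58 and 2.84 TPM against 3.22, 2.65 and 2.03 TPM. St3gal6 ranged from 1.15 to 2.07 TPM. St3gal4 took 2.66 TPM in Control 1 and 0.844 TPM in SIGLEC12 4. The groups overlapped in all 6 genes on this scale, and Control 1 was the highest sample in each. The marker sum itself differed between the groups, and no test was run on these ratios.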
